A study of Mus musculus with 13 samples.

Results

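The genes described here are 6 transcription factors that drive epithelial-mesenchymal transition (EMT), Snai1, Snai2, Twist1, Twist2, Zeb1 and Zeb2, and 3 mesenchymal markers, Vim, Cdh2 and Fn1. They were found among the 41174 probes of a mouse expression array by the gene name of each probe or an older synonym of it; Zeb1 is listed as Zfhx1a and Zeb2 as Zfhx1b. Zeb1 and Cdh2 lie on chromosome 18. Together the 9 genes have 18 probes, of which 12 passed the filter on dim probes, as did 26606 of all probes. Each gene was followed by its brightest kept probe, which gave 9 of the 17642 genes tested. The 6 probes left out are 2 of Cdh2, 1 of Vim and 3 of Zeb2. The array also carries probes named Sip1, an alias once used for Zeb2, but their accession is that of the SMN-interacting protein, and they were not counted.

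The study asked how the gel around mammary epithelium changes gene expression in normal and tumor-derived organoids, which are multicellular pieces of epithelium freed by collagenase and trypsin. Tumor organoids came from the largest mammary tumor of each MMTV-PyMT mouse, a strain in which the MMTV promoter drives the polyoma virus middle T antigen in mammary epithelium, harvested at 12 to 16 weeks of age at the stage of poorly differentiated carcinoma. Normal organoids came from mammary glands of FVB mice. The groups were tumor organoids in collagen I (mice A, B and C), tumor organoids in Matrigel (the same mice A, B and C), normal organoids in collagen I (mice A, B and C) and, in Matrigel, normal organoids of mice A, B and D. Letters are shared within a tissue only, so tumor mouse A and normal mouse A are different animals. Matrigel is a laminin-rich basement membrane gel. Collagen I, which forms the fibrils of the stroma, came from rat tail and was used at 3 mg/ml. All cultures received 2.5 nM FGF2 and were collected on day 4. RNA was amplified from low input, labelled with Cy3 and hybridised 1 sample per array, with 3 arrays per group in batch 2 and 2 further arrays in batch 1 that repeat normal Matrigel mice A and B. The number of arrays limits the precision of every value.

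EMT is the program by which epithelial cells loosen their junctions, lose apical-basal polarity and take on a migratory, mesenchymal character. Zinc finger factors of the Snail and Zeb families and basic helix-loop-helix factors of the Twist family carry it out, largely by binding E-box motifs in the promoters of E-cadherin and other epithelial genes and repressing them. Vimentin is an intermediate filament protein of mesenchymal cells, N-cadherin replaces E-cadherin in many cells that have passed through EMT, and fibronectin is a matrix glycoprotein that mesenchymal cells secrete. In the mammary gland Snai2 is also a normal gene of basal epithelial cells, and vimentin is made by basal and stromal cells, so that these genes mark more than 1 cell type there.

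The promoter of Snai1 is shown because Snai1 was the 1 factor of the 6 that passed the test between the gels, and because human SNAI1 protein has been described to bind an E-box of its own promoter. The 250 bases before its start lie at chr2:167537945-167538194 on the plus strand (GRCm38.p6, sequence from RefSeq), and the capitals mark the E-box.
Snai1 promoter: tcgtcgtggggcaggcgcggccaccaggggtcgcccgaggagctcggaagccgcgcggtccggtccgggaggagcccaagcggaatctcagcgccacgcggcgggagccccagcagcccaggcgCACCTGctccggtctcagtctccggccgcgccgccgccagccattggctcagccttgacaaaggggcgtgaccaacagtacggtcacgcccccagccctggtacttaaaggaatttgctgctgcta
The motif CACCTG begins 126 bases before the start. Searched as CACCTG or, for the other strand, CAGGTG, the motif was in 17.2% of the 32851 promoters of the same length. RefSeq promoters were at hand for 5 of the 9 genes, and of their 8 promoters (4 of them of Zeb2) only this one holds the motif. A match describes these letters and is not evidence of binding.

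Fibronectin is the only gene of the 9 with 3 kept probes, so their sequences are shown to place the values given for each. All lie on chromosome 1, on the minus strand, in the mm7 build that the file headers name: probe 1 at chr1:71832689-71834926, probe 2 at chr1:71839394-71839453 and probe 3 at chr1:71869155-71869913.
Fn1 probe 1: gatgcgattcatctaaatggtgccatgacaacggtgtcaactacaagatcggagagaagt
Fn1 probe 2: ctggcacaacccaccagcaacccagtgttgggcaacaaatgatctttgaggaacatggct
Fn1 probe 3: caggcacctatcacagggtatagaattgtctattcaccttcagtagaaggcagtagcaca
Each probe is 60 bases long. Probes 1 and 3 span 2238 and 759 bases of the genome, so each crosses at least 1 intron, and each of the 3 has at least 1 reading frame with no stop codon. Probe 1, with 10 spots on the array, is the brightest and stands for the gene. The probe of Snai1 lies at chr2:167283227-167283286 and that of Snai2 at chr16:14250104-14250163. The probes of Twist1, Twist2 and Vim lie at chr12:31805579-31805638, chr1:91755751-91755809 and chr2:13521763-13521822. The 2 kept probes of Zeb2 lie at chr2:44994565-44994624 (probe 1) and chr2:44995859-44995918 (probe 2).

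Levels below are log2 of a probe's processed signal over the 75th percentile of its array, so that 0 is the brightness of that percentile, and levels of different probes are not set against each other. The arrays differed in brightness: the 75th percentile lay at 690 to 812 units for tumor collagen I arrays, 384 to 570 for tumor Matrigel, 972 to 1218 for normal collagen I and 672 to 1101 for normal Matrigel. Spike-in control RNAs stood 2.36 to 2.73 above the 75th percentile (log2) in tumor Matrigel arrays and 0.22 to 1.06 in the other 9 arrays compared, so tumor Matrigel arrays stand apart in overall signal. All 4 groups held epithelial RNA: Krt8 and Krt18, keratins of luminal cells, were well above background on all 12 arrays, with mean levels of 7.84 to 9.24. The luminal marker Foxa1 averaged -4.29 and -4.10 in tumor collagen I and Matrigel organoids, against -0.09 and -0.75 in normal ones. Col1a2, a fibroblast marker, was also well above background on all 12 arrays. Differences are on the log2 scale, ± gives their SE from limma, and adjusted p-values are over all 17642 genes (Benjamini-Hochberg). A gene rose or fell where its adjusted p was under 0.05.

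Between the gels in tumor organoids, Fn1 rose in collagen I and Snai1 fell, while the other 7 genes did not pass the test. So 2 of 9 genes changed, against 27.6% of all genes tested, and the arrays of the 2 groups did not overlap for 3 of 9, against 38.2% of all genes. In normal organoids none of the 9 passed between the gels (limma; 1 of 9 at an unadjusted p under 0.05, against 9.02% of all genes), as 0.0397% of all genes did, and the groups did not overlap for 2 of 9, against 21.5%. Between the tissues in Matrigel, Snai1 rose in tumor organoids, and Zeb1, Zeb2, Cdh2, Vim and Fn1 fell, which is 6 of 9 against 51.7% of all genes, and the same number of members did not overlap, 6 of 9 against 57.7%. Between the tissues in collagen I, Zeb1, Zeb2 and Cdh2 fell in tumor organoids, which is 3 of 9 against 8.92%, while 6 of 9 did not overlap, against 33.3% of all genes. Zeb2 and Cdh2 passed the filter on dim probes only through the normal groups, well above background on all 3 arrays of each. In tumor organoids both were so on 2 of 3 arrays in collagen I and 0 of 3 in Matrigel. The counts between the tissues thus rest partly on how probes were kept and do not set the 9 genes apart. With only probes well above background on all arrays, which leaves out Zeb1, Zeb2 and Cdh2, no member passed in collagen I. The comparisons share groups: each group enters 2 of these 4.

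**Figure D1:**
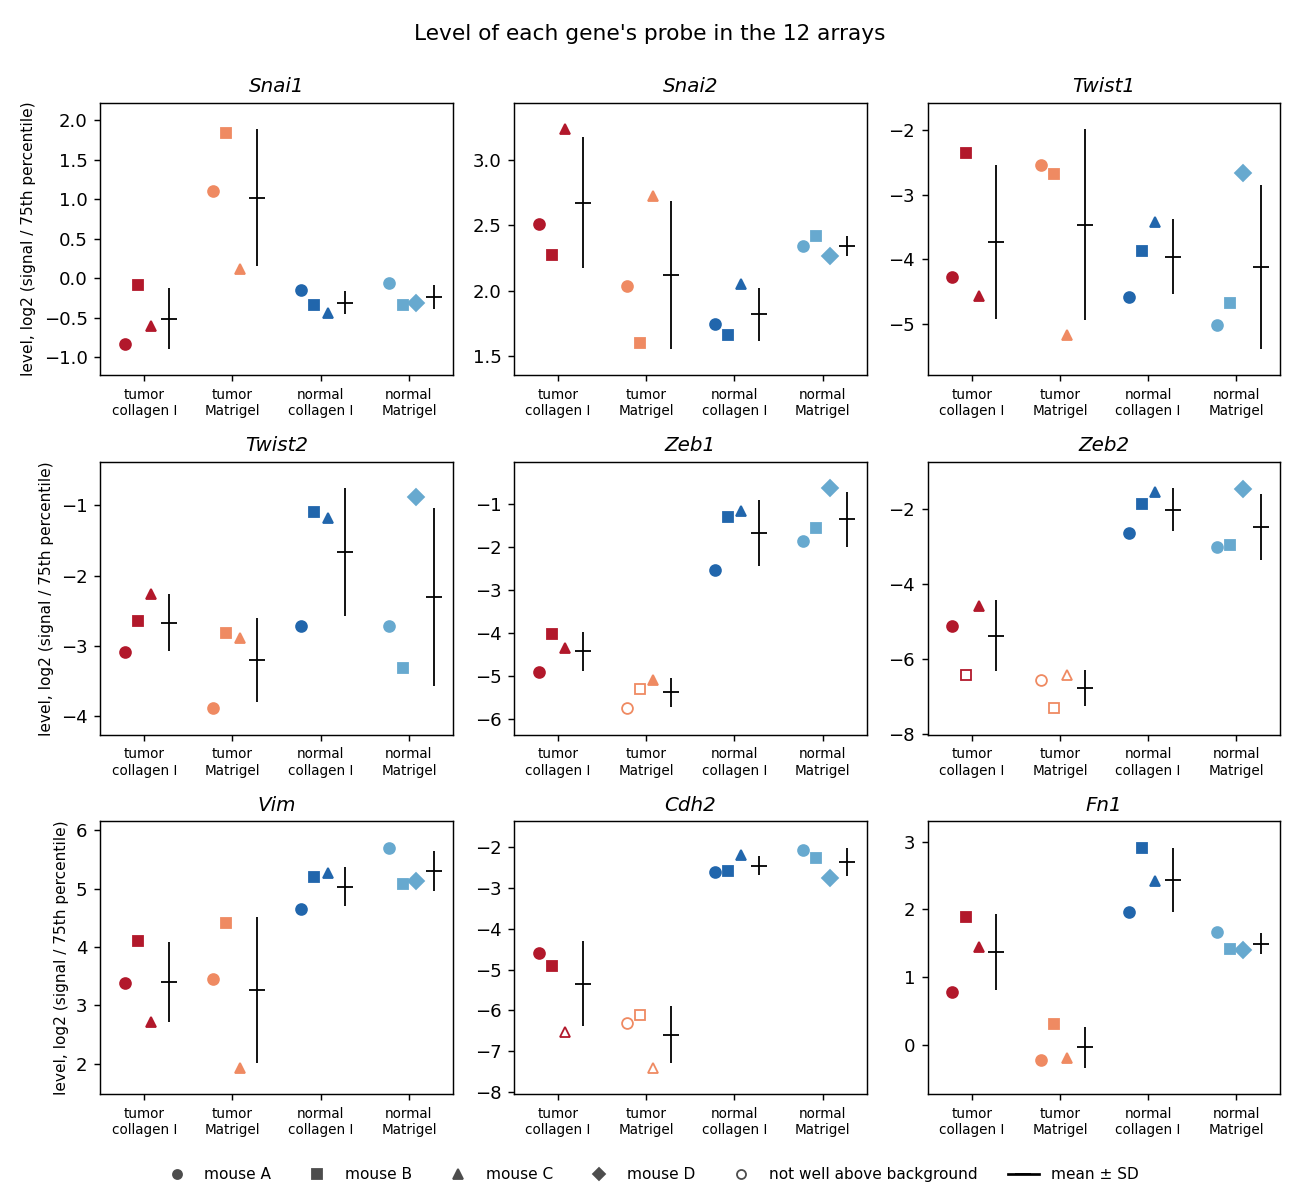
Level of the probe of each of the 9 genes (y axis, log2 of the signal over the array's 75th percentile) in the 12 arrays, by group (x axis). Symbols mark mice, open symbols are arrays not well above background, and the black bars are the mean ± SD of 3 arrays. Snai1 is highest in tumor Matrigel, and Zeb1, Zeb2 and Cdh2 are lower in all 6 tumor arrays than in all 6 normal arrays.

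Snai1, a zinc finger repressor of E-cadherin, had levels of -0.84, -0.09 and -0.61 in tumor organoids in collagen I and of 1.10, 1.84 and 0.12 in tumor organoids in Matrigel (mice A, B and C). In normal organoids it was at -0.15, -0.35 and -0.44 in collagen I (mice A, B and C) and at -0.07, -0.35 and -0.32 in Matrigel (mice A, B and D). The 3 tumor Matrigel arrays were the highest of the 12, and mouse C was the lowest of the 3. Snai1 fell in collagen I against Matrigel in tumor organoids (difference -1.53 ± 0.36, 2.89-fold, adjusted p = 0.0127) and was lower in collagen I in all 3 mice. It rose in tumor against normal organoids in Matrigel, by 1.26 ± 0.36 (2.40-fold, adjusted p = 0.0144). In collagen I, tumor and normal organoids overlapped, with a difference of -0.20 ± 0.36 (adjusted p = 0.792).

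Before scaling, the Snai1 signal averaged 1022 ± 484 units in tumor Matrigel and 797 ± 134 in normal Matrigel organoids (SD, n = 3 each). Scaled to the spike-ins instead, which moved the median of all genes to -1.82 in that comparison, Snai1 was at -0.66, that is 1.16 above the median gene under either scaling. Likewise, between the gels in tumor organoids the spike-in scaling moved the median gene to 1.67 and Snai1 to 0.19, so Snai1 was 1.47 below the median gene under both. The direction given for Snai1 is therefore relative to the other genes on the array. The call between the gels was lost without tumor collagen I mouse A (-1.37, adjusted p = 0.0518), with slide as a fixed block (-1.43, adjusted p = 0.0721) and in a fit of those groups alone (adjusted p = 0.0677), and the call between the tissues without tumor Matrigel mouse B (0.85, adjusted p = 0.0507). On slide 8, tumor collagen I A lay 0.96 below tumor Matrigel C, and on slide 3 tumor Matrigel B lay 2.16 above normal Matrigel D.

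Snai2, the Snail family member of basal mammary cells, had levels of 2.51, 2.27 and 3.23 in tumor collagen I and of 2.04, 1.60 and 2.73 in tumor Matrigel organoids. In normal organoids it had 1.75, 1.67 and 2.05 in collagen I and 2.34, 2.42 and 2.27 in Matrigel. Within each tumor mouse Snai2 was higher in collagen I, by 0.47, 0.67 and 0.51 in mice A, B and C, while in the normal mice with both gels it was lower in collagen I, by 0.59 in A and 0.75 in B. No test of Snai2 passed. The gel difference was 0.55 ± 0.30 in tumor organoids (adjusted p = 0.201; 95% interval -0.12 to 1.22) and -0.52 ± 0.30 in normal organoids (adjusted p = 0.692), and the difference between the 2 was 1.07 ± 0.43 (unadjusted p = 0.0307, adjusted p = 0.151). In collagen I the tumor arrays were all above the normal ones, by 0.85 ± 0.30 (adjusted p = 0.116).

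Twist1 and Twist2 were well above background on all 12 arrays, and neither passed any test. Twist1, a helix-loop-helix factor needed for cranial mesoderm in the embryo, spread over more than 2 log2 units within 3 of the 4 groups: -4.28, -2.36 and -4.56 in tumor collagen I, -2.53, -2.68 and -5.17 in tumor Matrigel, -4.58, -3.87 and -3.42 in normal collagen I, and -5.03, -4.68 and -2.67 in normal Matrigel organoids. Its differences had adjusted p-values of 0.532 to 0.986, and the interval between the gels in tumor organoids, was -2.13 to 1.59. Under normexp background correction, which adds an offset of 50 units to every signal, Twist1 passed between the tissues in Matrigel (1.29, adjusted p = 0.0166). Twist2, its close relative in dermal and bone-forming cells, had levels of -3.09, -2.65 and -2.27 in tumor collagen I and -3.89, -2.82 and -2.89 in tumor Matrigel organoids. In normal organoids Twist2 had -2.71, -1.10 and -1.19 in collagen I and -2.71, -3.32 and -0.88 in Matrigel. The tumor and normal arrays overlapped for both genes in both gels.

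**Figure D2:**
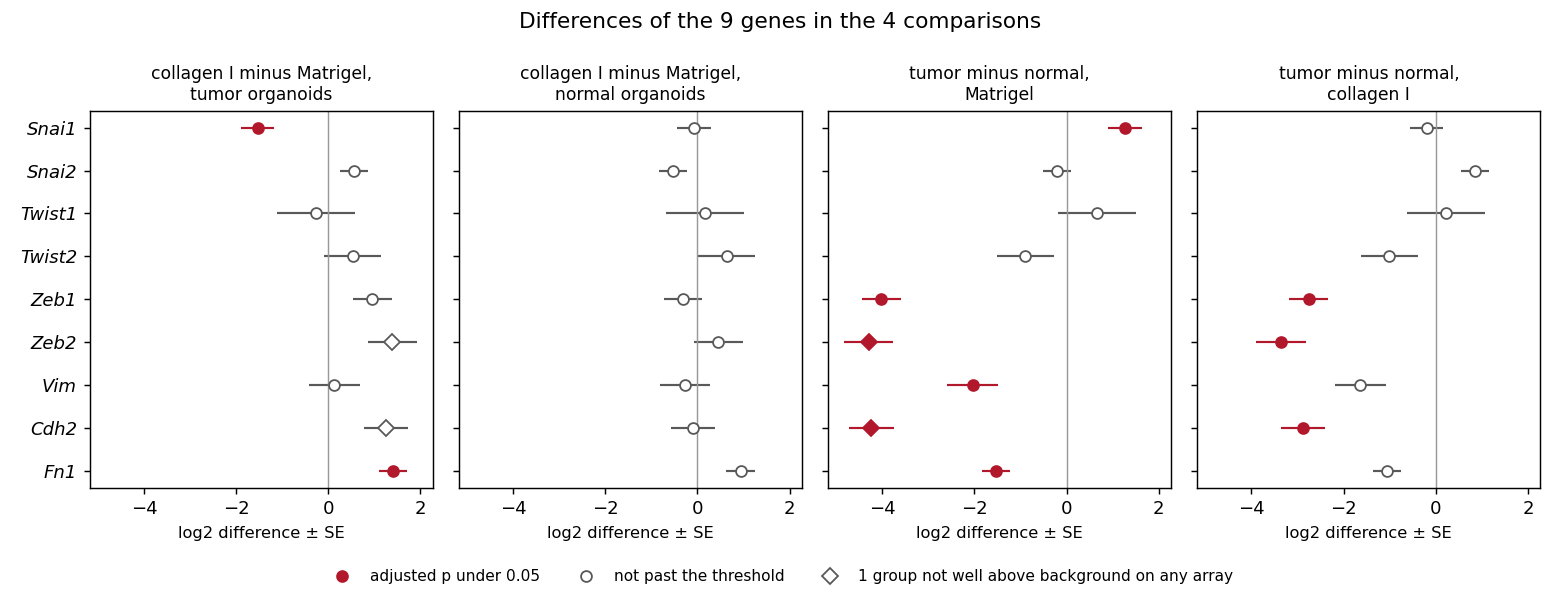
Log2 differences ± SE of the 9 genes in the 4 comparisons (x axis), 1 row per gene. Filled red symbols passed an adjusted p of 0.05, open symbols did not, and diamonds mark comparisons in which 1 group was not well above background on any array. Zeb1, Zeb2 and Cdh2 lie left of 0 by more than 2.7 in both tumor against normal panels, and no gene is filled in the normal gel panel.

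The Zeb genes were lower in tumor organoids in both gels. Zeb1, a zinc finger homeodomain repressor of epithelial genes, had levels of -4.91, -4.03 and -4.34 in tumor collagen I and -5.75, -5.31 and -5.09 in tumor Matrigel organoids, where only mouse C was well above background. In normal organoids it had -2.55, -1.30 and -1.17 in collagen I and -1.86, -1.57 and -0.65 in Matrigel. All 6 tumor arrays lay below all 6 normal ones. Zeb1 fell in tumor against normal organoids in Matrigel (-4.02 ± 0.42, 16.3-fold, adjusted p = 8.11e-05, with 1 of 3 tumor arrays well above background), and also did so in collagen I (-2.76 ± 0.42, 6.76-fold, adjusted p = 0.00211).

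Zeb2, the other member of that family, was not well above background on any tumor Matrigel array, at -6.58, -7.33 and -6.44, and was so on 2 of 3 tumor collagen I arrays, at -5.12, -6.44 and -4.61. In normal organoids it had -2.65, -1.88 and -1.55 in collagen I and -3.02, -2.97 and -1.46 in Matrigel. Zeb2 was at least 6.89-fold lower in tumor than in normal organoids in Matrigel (adjusted p = 2.15e-04), where the floor is the lowest signal of any probe well above background on each array or the probe's own signal if higher. In collagen I Zeb2 fell too (-3.36 ± 0.54, 10.3-fold, adjusted p = 0.00299). Probe 2 of Zeb2 was at least 3.71-fold lower in tumor Matrigel organoids (adjusted p over all kept probes = 7.66e-04), and in collagen I its difference was -2.02 ± 0.57 (adjusted p = 0.0574), so the 2 probes share the direction but not the call.

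Between the gels in tumor organoids the difference of Zeb1 was 0.95 ± 0.42 (adjusted p = 0.116). In mouse C, the only one measured above background in both gels, Zeb1 was higher in collagen I by 0.74. Zeb2 averaged -5.39 ± 0.95 in collagen I against -6.78 ± 0.48 in Matrigel (SD, n = 3 each; adjusted p = 0.0783), with no fold given because the Matrigel value is only a bound. With the mouse as a fixed block, since both gels come from the same mice, Zeb1 had an adjusted p of 0.0444 and Zeb2 of 0.0218. Probe 2 of Zeb2 was at least 1.25-fold higher in collagen I (adjusted p over all kept probes = 0.0281). Under normexp background correction the direction reversed for both genes. Zeb1 then averaged -2.75 in collagen I and -2.04 in Matrigel, and Zeb2 (probe 1) -3.02 and -2.14. The median difference of all genes was -0.32 there. The direction between the gels thus depends on the background correction.

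Vim, which encodes vimentin, was bright in every group, with levels of 3.38, 4.10 and 2.72 in tumor collagen I and 3.46, 4.41 and 1.93 in tumor Matrigel organoids. Normal organoids had 4.65, 5.20 and 5.26 in collagen I and 5.70, 5.07 and 5.14 in Matrigel. All tumor arrays lay below all normal ones, and tumor mouse C was lowest in both gels. Vim fell in tumor against normal organoids in Matrigel (-2.04 ± 0.55, 4.11-fold, adjusted p = 0.0100; with slide as a fixed block -1.32, adjusted p = 0.274), and in collagen I the difference was -1.64 ± 0.55 (adjusted p = 0.0945). Between the gels Vim differed by 0.13 ± 0.55 in tumor organoids (adjusted p = 0.877; 95% interval -1.07 to 1.34) and by -0.27 ± 0.55 in normal organoids (adjusted p = 0.944).

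Cdh2, which encodes N-cadherin, was not well above background on any tumor Matrigel array, at -6.30, -6.10 and -7.40, and was so in tumor collagen I mice A and B but not C, at -4.58, -4.92 and -6.52. In normal organoids it had -2.61, -2.58 and -2.19 in collagen I and -2.08, -2.27 and -2.75 in Matrigel. Cdh2 was at least 7.49-fold lower in tumor than in normal organoids in Matrigel (adjusted p = 1.27e-04) and fell in collagen I (-2.88 ± 0.48, 7.37-fold, adjusted p = 0.0037). In tumor organoids it averaged -5.34 ± 1.04 in collagen I and -6.60 ± 0.70 in Matrigel (SD, n = 3 each; adjusted p = 0.0748, and 0.0198 with the mouse as a fixed block). In normal organoids the gel difference was -0.10 ± 0.48 (adjusted p = 0.986). The 2 other probes of Cdh2 were not well above background on any of the 12 arrays. Under normexp background correction the calls of Zeb1, Zeb2 and Cdh2 between tissues were lost in both gels, with differences in Matrigel of -0.89, -0.18 and -0.07 (adjusted p = 0.113, 0.778 and 0.905). With normexp, Cdh2 in tumor organoids averaged -3.04 in collagen I and -2.13 in Matrigel, so its direction between the gels reversed. In collagen I the calls of Zeb1, Zeb2 and Cdh2 between tissues were also lost with slide as a fixed block, at -3.08, -3.17 and -2.80 (adjusted p = 0.124, 0.149 and 0.164). On slide 5 alone tumor collagen I C and normal collagen I B differed by -3.04, -2.72 and -3.95.

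Fn1 was the gene of the 9 that rose in collagen I in tumor organoids, with levels of 0.78, 1.89 and 1.44 in collagen I and -0.23, 0.30 and -0.19 in Matrigel. In normal organoids it had 1.96, 2.91 and 2.41 in collagen I and 1.67, 1.41 and 1.39 in Matrigel. The groups did not overlap in any of the 4 comparisons. Fn1 rose by 1.41 ± 0.31 in collagen I in tumor organoids (2.65-fold, adjusted p = 0.00946), and in normal organoids the difference was 0.94 ± 0.31 (unadjusted p = 0.0119, adjusted p = 0.372). The difference between the 2 gel effects was 0.47 ± 0.44 (adjusted p = 0.533), and -0.73 ± 0.64 (adjusted p = 0.46) with the batch 1 arrays for normal Matrigel A and B, where the normal gel difference was 2.14 (adjusted p = 0.0721). Fn1 fell in tumor against normal organoids in Matrigel (-1.53 ± 0.31, 2.89-fold, adjusted p = 0.00244), and in collagen I the difference was -1.06 ± 0.31 (adjusted p = 0.0596).

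Some cell type markers differed between the gels in tumor organoids too, where 27.6% of all genes passed. Of those tested, 1 of 8 fibroblast, 1 of 8 basal or myoepithelial, 1 of 6 endothelial, 1 of 7 leukocyte and 2 of 8 luminal markers passed. With 0 of 4 pericyte and 0 of 2 adipocyte markers, each list had a smaller share than all genes. All 8 fibroblast markers had differences above 0 and 1 passed (Pdgfra, 1.33 ± 0.40, adjusted p = 0.0315), with summed levels of 5.62 to 10.1 in collagen I and 3.82 to 5.40 in Matrigel (units of the 75th percentile). Oxtr averaged -3.57 in collagen I and -6.47 in Matrigel, where it was not well above background (adjusted p = 0.00442), while Emcn, an endothelial sialomucin, fell (-2.21 ± 0.62, adjusted p = 0.0238), as did Cd68 (-2.92 ± 0.43, adjusted p = 0.00211). Luminal markers summed to 638 to 813 in collagen I and 1080 to 1578 in Matrigel. The brightest of them weigh most in this sum, Krt8 (8.12 in collagen I and 8.81 in Matrigel) and Krt18 (8.28 and 9.24). Elf5 was at 4.82 and 4.83, and only Cdh1 had a higher mean in collagen I (1.54 and 1.35). The part of these cell types in the rise of Fn1 was not tested.

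The other probes of Fn1 gave the same directions. Between the gels in tumor organoids probe 2 differed by 1.42 ± 0.34 and probe 3 by 1.67 ± 0.36 (adjusted p over all kept probes = 0.0125 and 0.00802), and between the tissues in Matrigel by -1.59 ± 0.34 and -0.97 ± 0.36 (adjusted p = 0.00324 and 0.0419). The batch 1 arrays did not give the same level of Fn1: probe 1 was at -0.40 and -0.12 there, against 1.67 and 1.41 for the same mice A and B in batch 2. The labels state for mouse B that the same RNA was hybridised in both batches. Probe 2 differed by -2.47 and -2.27 (batch 1 minus batch 2), while probe 3 differed by -0.18 and 0.57, and the other 8 genes differed by less than 1. Of all genes, 3.18% in mouse A and 1.56% in mouse B differed between batches by more than probe 1 of Fn1. With the batch 1 arrays standing for normal Matrigel A and B, Fn1 differed by -0.33 between tumor and normal organoids in Matrigel (adjusted p = 0.548), so that call rests on the batch 2 arrays. The rise in collagen I in tumor organoids kept its call under each alternative run except slide as a fixed block (0.74, adjusted p = 0.132), and on slide 8 tumor collagen I A lay 0.97 above tumor Matrigel C.

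**Figure D3:**
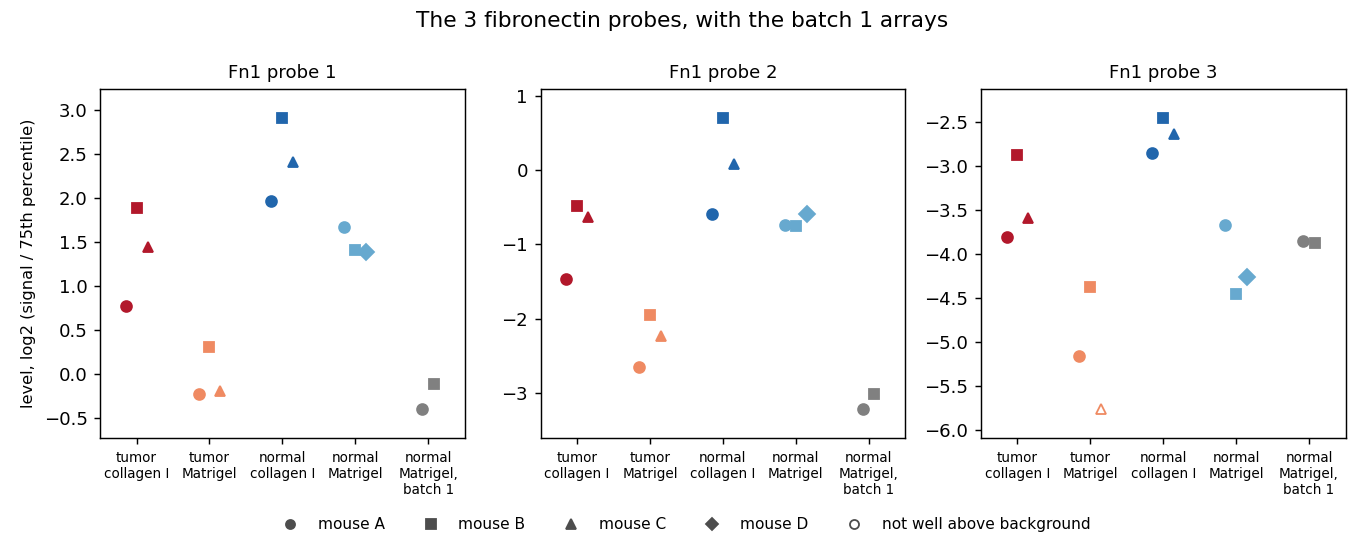
Level of the 3 kept probes of Fn1 (y axis, log2 of the signal over the array's 75th percentile) by group (x axis), with the 2 batch 1 arrays of normal Matrigel mice A and B in gray. Open symbols are arrays not well above background. Probes 1 and 2 are lower in batch 1 than in batch 2 for the same mice, and probe 3 lies within 0.6 of it.

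The gel difference was set side by side within each mouse, since both gels of a tissue share mice. In tumor organoids Fn1, Snai2 and Twist2 were higher in collagen I in all 3 mice, and Snai1 was lower in all 3, by 1.94, 1.93 and 0.73 in A, B and C. In normal mice A and B, Snai1 differed by -0.09 and under 0.01 in size, and Cdh2 was lower in collagen I by 0.53 and 0.31. Tested directly, none of the 9 genes had a gel effect that differed between the tissues (limma), as 2.81% of all genes did. At an unadjusted p under 0.05 there were 2 of 9, Snai1 and Snai2, against 26% of all genes. The difference for Snai1 was -1.46 ± 0.52 (adjusted p = 0.114).

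**Figure D4:**
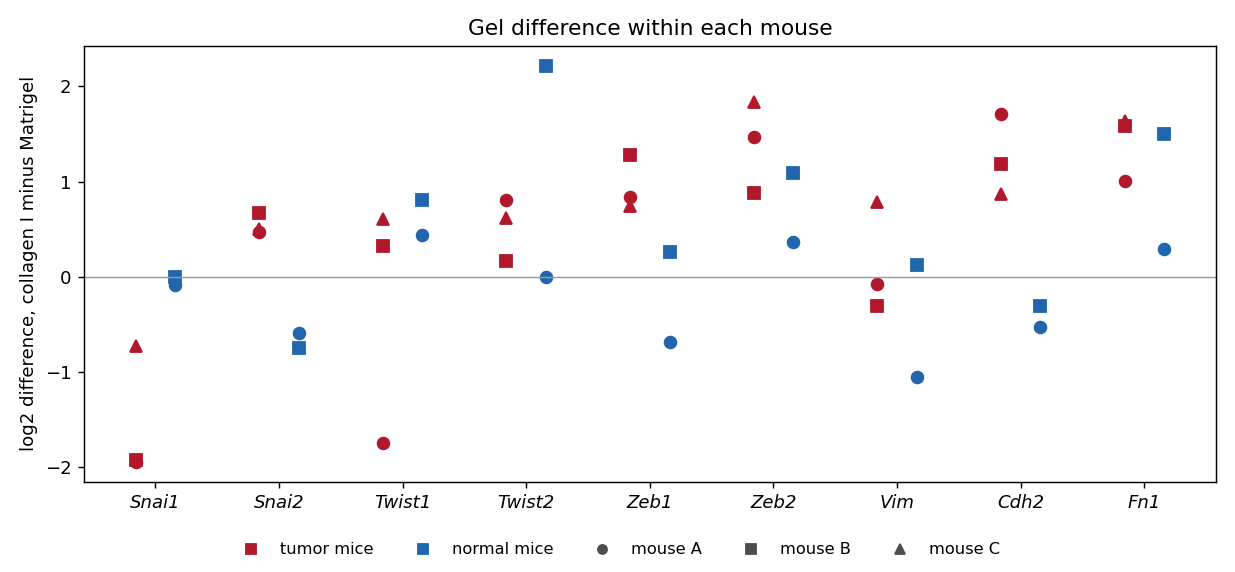
Log2 difference between collagen I and Matrigel (y axis) within each mouse that has both gels, for the 9 genes (x axis). Red symbols are the 3 tumor mice and blue symbols the 2 normal mice; a letter shared by a tumor and a normal mouse does not mean the same animal. Snai1 lies below 0 in all 3 tumor mice, while Fn1 lies above 0 in all 5 mice; the tumor points of Zeb2 and Cdh2, and of Zeb1 in mice A and B, rest on Matrigel arrays not well above background.

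Markers of other cell types moved with the tissue differences, in comparisons where 51.7% of all genes passed in Matrigel and 8.92% in collagen I. Of 8 fibroblast markers, 8 fell in tumor against normal organoids when cultured in Matrigel and 6 when in collagen I, and their summed level was 5.62 to 10.1 in tumor arrays of collagen I and 3.82 to 5.40 in those of Matrigel, against 28.7 to 68.9 in normal collagen I and 17.5 to 121 in normal Matrigel arrays (units of the array's 75th percentile). All 4 pericyte markers fell in both gels, and so did 5 of 6 endothelial markers, whose summed level was 0.114 to 0.239 in tumor arrays of collagen I and 0.273 to 0.594 in those of Matrigel, against 5.09 to 9.72 in normal collagen I and 8.59 to 12.8 in normal Matrigel arrays. In tumor arrays 7 or 8 of the 8 fibroblast and 2 to 5 of the 6 endothelial markers were well above background, so neither list was wholly below background there. The leukocyte markers summed to 3.36 to 7.70 in tumor arrays of collagen I, against 39.5 to 60.5 in normal ones, but overlapped in Matrigel, at 4.39 to 7.37 in tumor and 2.21 to 27.7 in normal arrays. The macrophage gene Cd68 rose in tumor against normal organoids in Matrigel, with mean levels of 1.61 and -2.55 (adjusted p = 7.63e-05). Of 8 basal or myoepithelial markers, 3 fell and 1 rose in both gels. The falls were of the contractile genes Myh11 (-7.05 in Matrigel and -5.79 in collagen I) and Cnn1 (-5.48 and -4.84) and of the oxytocin receptor gene Oxtr. Oxtr was not well above background in tumor Matrigel arrays and fell by 2.45 in collagen I (adjusted p = 0.0155). Acta2, another contractile gene, was not among them. Its means were 4.27 in tumor and 4.31 in normal Matrigel organoids, and 4.12 and 4.37 in collagen I. Means of Krt14, Krt17 and Trp63 were higher in tumor organoids in both gels, and that of Krt5 was lower. The falls of Zeb1, Zeb2, Cdh2, Vim and Fn1 in Matrigel, and of Zeb1, Zeb2 and Cdh2 in collagen I, went with those of fibroblast, pericyte and endothelial markers and of Myh11, Cnn1 and Oxtr. The part of these cell types in the result was not tested, and in such bulk samples fewer cells of a type and less RNA per cell cannot be told apart. Within normal Matrigel, mouse D had a fibroblast sum of 121 against 19.4 in A and 17.5 in B, and it was also the highest of the 3 for Twist1, Twist2, Zeb1 and Zeb2 but not for Vim, Cdh2 or Fn1. Without that array the 6 calls between tissues in Matrigel stood, and within slide 3, which holds tumor Matrigel B and normal Matrigel D, the differences were -4.66 for Zeb1, -0.73 for Vim and -1.09 for Fn1.

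**Figure D5:**
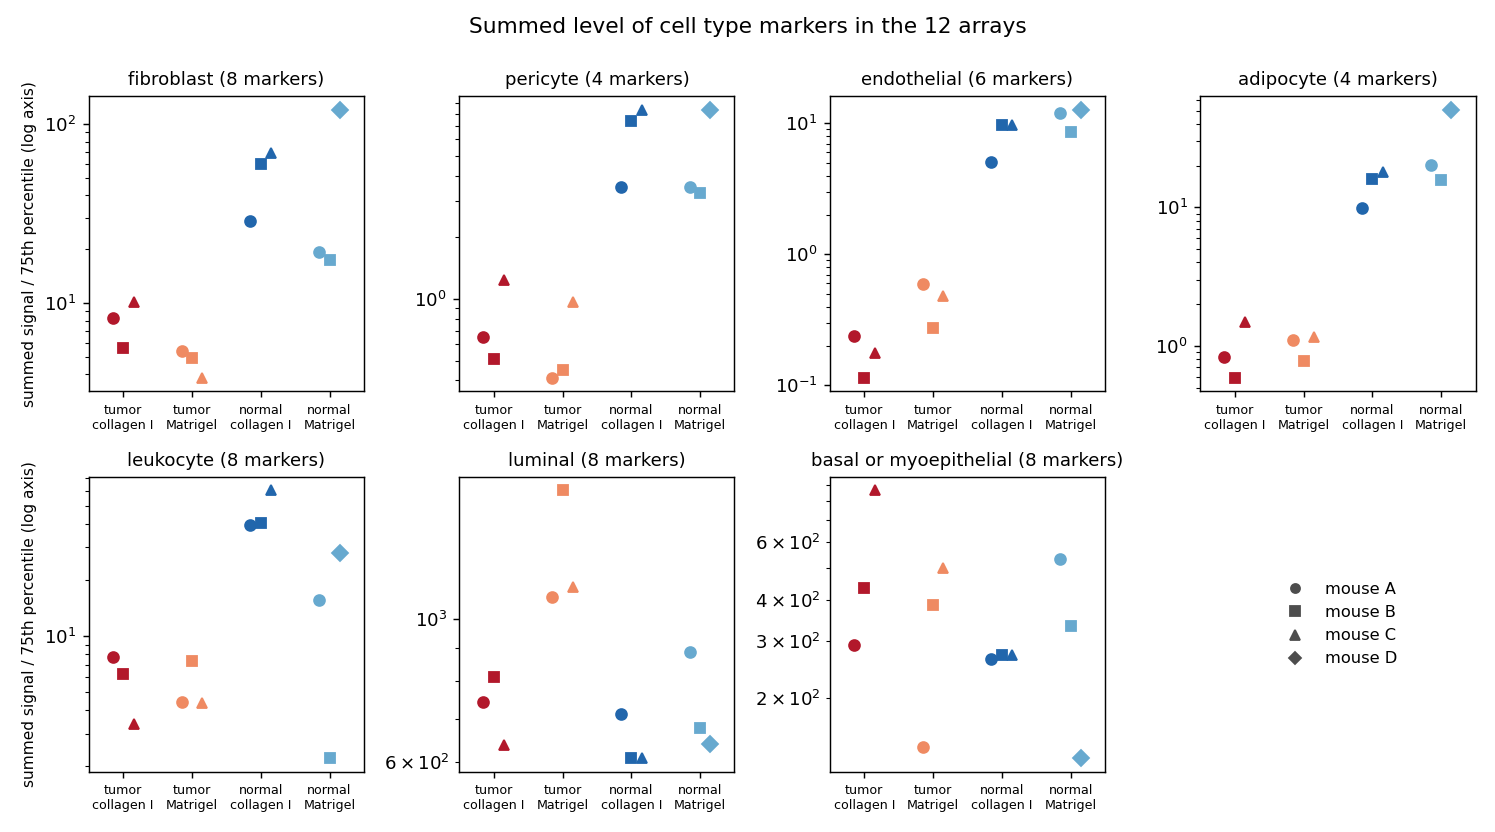
Summed signal of the markers of 7 cell types in units of the array's 75th percentile (y axis, log scale) in the 12 arrays by group (x axis), with symbols for mice. Fibroblast, pericyte, endothelial and adipocyte sums are lower in all 6 tumor arrays than in all 6 normal arrays, and luminal sums lie between 609 and 1578 in every group.

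Other genes of the program were read from 4 lists. Of 31 other mesenchymal markers, 21 fell and 5 rose in tumor against normal organoids in Matrigel, with a median difference of -2.38 against 0.10 over all genes. In that comparison 51.7% of all genes passed. This list holds all 8 fibroblast markers. The largest falls were of Fbn1 (fibrillin, -5.26 ± 0.41, adjusted p = 1.85e-05), Col3a1 (a fibrillar collagen chain, -5.16 ± 0.72) and Postn (periostin, -4.38 ± 0.55), and those that rose included Tnc (tenascin, 1.89 ± 0.34, adjusted p = 0.00128) and Mmp3 (stromelysin, 1.79 ± 0.68, adjusted p = 0.0451). In collagen I 15 of 31 fell and 0 rose, where 8.92% of all genes passed, with a median of -1.55 against 0.05. Those falls were led by Col3a1 (-4.14 ± 0.72), Fbn1 (-3.51 ± 0.41) and Tagln (transgelin of smooth muscle, -3.38 ± 0.71). In tumor organoids 6 of 31 rose and 1 fell in collagen I against Matrigel, a smaller share than the 27.6% of all genes, with a median of 0.65 against -0.06. Postn, a matrix protein, rose by 3.88 ± 0.55 (adjusted p = 0.00193) and Fbn1 by 1.61 ± 0.41, while Cdh11, a mesenchymal cadherin, fell by 1.04 ± 0.25. Lox, a collagen-crosslinking oxidase, averaged -5.11 in collagen I against -7.25 in Matrigel, where it was not well above background (adjusted p = 0.0181).

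Of 31 epithelial genes that EMT factors repress or that oppose EMT, 14 rose and 2 fell in tumor against normal organoids in Matrigel, where 51.7% of all genes passed (median 0.47 against 0.10), among them the tight junction genes Cldn4 (2.99 ± 0.54, adjusted p = 0.00135) and Cldn3 (1.48 ± 0.24) and the repressor Ovol1 (1.58 ± 0.61). The 2 that fell were Marveld3 (-0.95 ± 0.32) and Ocln (-0.66 ± 0.24), both of tight junctions. In collagen I 0 of 31 passed (limma; 5 higher at an unadjusted p under 0.05). In tumor organoids 1 of 31 rose in collagen I, Ehf (0.97 ± 0.23), and 5 fell, a smaller share than the 27.6% of all genes. Those that fell were led by Elf3 (-1.40 ± 0.21, adjusted p = 0.00211), Krt18 (-0.96 ± 0.19) and Cldn3 (-0.87 ± 0.24). Elf3, an epithelial ETS factor, also had a gel effect that differed between tissues (-1.51 ± 0.29, adjusted p = 0.0336). Cdh1, the E-cadherin gene, is named as the textbook target of these repressors and after its values were seen; it did not pass between tissues, with differences of -0.20 in Matrigel and 0.28 in collagen I (adjusted p = 0.738 and 0.767).

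Of 15 other EMT transcription factors tested, 7 rose and 2 fell in tumor against normal organoids in Matrigel (median 0.84 against 0.10), beside the 51.7% of all genes that passed. Those that rose included Hmga2 (2.35 ± 0.46) and Prrx2 (1.71 ± 0.51), and Tcf4 (-2.01 ± 0.29) and Klf8 (-1.64 ± 0.22) fell. In collagen I, where 8.92% of all genes passed, Prrx1 (-1.56 ± 0.35) and Foxc2 (-1.37 ± 0.38) fell and 0 rose. In collagen I against Matrigel in tumor organoids Klf8 (1.22 ± 0.22) and Tcf4 (1.01 ± 0.29) rose, and Prrx2 (-1.91 ± 0.51) and Foxc2 (-1.34 ± 0.38) fell. So 2 of the 15 rose and 2 fell, where 27.6% of all genes passed. Of 28 upstream signals, 9 rose and 2 fell between the tissues in Matrigel, a smaller share than the 51.7% of all genes (median 0.24 against 0.10), led by the ligand Bmp4 (2.56 ± 0.42), the Wnt effector Lef1 (2.12 ± 0.42) and Stat3 (1.39 ± 0.23), with Hif1a (-1.02 ± 0.28) and Met (-0.62 ± 0.23) lower. In collagen I 0 of 28 passed (limma; 4 higher and 3 lower at an unadjusted p under 0.05). In tumor organoids Skil (1.05 ± 0.32) and Met (0.82 ± 0.23) rose in collagen I, and Tgfb1 (-0.83 ± 0.23) and Smad3 (-0.67 ± 0.20) fell. These were 2 and 2 of the 28, a smaller share than the 27.6% of all genes. The gel effect differed between the tissues for Klf8 (1.36 ± 0.31, adjusted p = 0.0463) and Lef1 (-3.30 ± 0.60, adjusted p = 0.0311). In normal organoids 0 members of the 4 lists passed between the gels. At an unadjusted p under 0.05 (limma), 3 mesenchymal markers, 5 factors and 4 upstream signals were higher there and 1 upstream signal was lower, as 9.02% of all genes passed that level.

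The genes most like each member over the 12 arrays were ranked by Pearson r among 12527 genes named in RefSeq and well above background on all of them, for the 6 members so measured. These correlations describe 12 arrays that share groups, mice and scaling. Snai1 was most like Mlycd (0.967), Cpne2 (0.966) and Kxd1 (0.966), and Snai2 like Col7a1 (0.915), Vav3 (0.885) and Rnf141 (0.881). Twist1 was most like Cd302 (0.921), Serpine2 (0.865) and F2rl1 (0.857), and Twist2 like Crabp1 (0.913), Tmem119 (0.904) and Mmd (0.886). Vim was most like Agpat4 (0.956), Pdpn (0.943) and Hhipl2 (0.940), and Fn1 like Bdh2 (0.929), Hacd3 (0.910) and 5031425E22Rik (0.905). Among the members, Zeb1 and Zeb2 followed each other at 0.944 over the 12 arrays and at 0.425 once group means were removed, and Vim and Cdh2 at 0.900 and 0.761. Zeb1, Zeb2 and Cdh2 were not well above background on some tumor arrays, so these values rest partly on background signal. Snai1 and Snai2 ran opposite within groups, at -0.779. Larger in size within groups were Twist2 and Zeb1 (0.872), Snai1 and Vim (0.869) and Snai2 and Vim (-0.853).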

How the data were processed

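Each array file holds, per the file headers, spot intensities after Agilent's own background correction and spatial detrending (Feature Extraction 9.5; the submitters' processing notes name 9.1), and these processed signals were used. A table of log2 values that the authors deposited for the same samples gave an alternative; how it was centred is not stated in the labels. Control spots and outlier spots (52 to 139 per array) were dropped, the 75th percentile of the array was subtracted on the log2 scale, and repeat spots of a probe were averaged. Dim probes were removed unless all arrays of some group had them well above background. Names came from RefSeq (GRCm38.p6) by accession for 22951 of 41174 probes and from the array files' names or synonyms otherwise.

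limma 3.58.1 (R 4.3.3) was fitted to the 12 batch 2 arrays with 1 term per group (residual df 8, prior df 2.73), with Benjamini-Hochberg adjustment over 17642 genes and a threshold of 0.05. An exact test of 3 against 3 arrays cannot go below p = 0.1. On simulated data for the gel comparison in tumor organoids, 75 of 100 genes changed by 2 log2 units and 31 of 100 changed by 1 were recovered among 17608 genes, with 8 unchanged genes called. The simulation changed only 200 genes, with independent noise and no mouse or slide effects. In the real comparison 27.6% of all genes passed, so these rates do not carry over to it. Per the labels, the same letter within a tissue is the same mouse, so the gels are paired; deviations of paired arrays from their group means correlated at -0.06, 0.33 and 0.42 in tumor mice and at 0.23 and -0.25 in normal mice.

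All 9 members are named. From each list up to 3 passing genes per direction are named in each comparison, except some that are not reported here, and for likeness the 3 genes with the highest r. The members, lists and tests were chosen with earlier results of these data known. Alternatives covered background correction, scaling, filters, probes, batch 1, mouse and slide blocks, the groups fitted, variance and weight options and each array left out. Figures were drawn with matplotlib 3.10.9.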

Additional observations from a re-analysis of the deposited data

Results flagged for a closer look

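Snai2 moved in opposite directions between the gels in the 2 tissues in every mouse that has both gels. It was higher in collagen I by 0.47 to 0.67 in the 3 tumor mice and lower by 0.59 and 0.75 in the 2 normal mice. The difference of the gel effects was 1.07 ± 0.43 (limma, unadjusted p = 0.0307, adjusted p = 0.151), which did not pass. For Cdh2 the fitted difference of gel effects was 1.35 ± 0.68 (unadjusted p = 0.0729, adjusted p = 0.234), which did not pass either. Its values were lower in collagen I in both normal mice, by 0.31 and 0.53, but no tumor Matrigel array was well above background, nor was tumor collagen I mouse C, so no size is given for the tumor mice and no direction for mouse C.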

How the results depend on the processing

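Between the gels in tumor organoids, where 2 of 9 genes were called, a replicate block for the mouse gave 4 as a random and 5 as a fixed term, scaling to the spike-ins gave 7 (with 15690 of 17642 genes called), a fit of only the groups compared 1 and slide as a fixed block 0; leaving out 1 array gave 1 to 3. In normal organoids 1 was called with array weights (Fn1) and 0 under the other alternatives, leaving out each array included. Between the tissues in Matrigel the count was 6, and 3 where only probes well above background on all 12 arrays were tested, which leaves out Zeb1, Zeb2 and Cdh2. It was 4 under normexp, which lost those 3 genes and added Twist1, 7 scaled to the spike-ins, which lost Snai1 and added Snai2 and Twist2 (15403 of 17642 genes called), and 5 with slide as a fixed block and with the batch 1 arrays; leaving out 1 array gave 5 to 6. In collagen I it was 3, and 0 under normexp, with slide as a fixed block and with only probes well above background on all arrays, and 5 under quantile normalization, with array weights and scaled to the spike-ins; leaving out 1 array gave 3 to 4. For the difference of gel effects it was 0, and 1 with array weights, 5 scaled to the spike-ins (10673 of 17642 genes called) and 0 to 1 without 1 array. The spike-in scaling and the batch 1 arrays in place of batch 2 were chosen after seeing the data. The spike-in scaling shifts all genes of an array alike, and with it Snai1 had a gel difference of 0.19 in tumor organoids and a tissue difference of -0.66 in Matrigel, still -1.47 and 1.16 relative to the median gene. Normexp background correction moved the median of all genes to -0.32 between the gels in tumor organoids and to 0.44 between the tissues in Matrigel. The cause of these changes was not tested. The replicate block changed no other call. Zeb1, Zeb2 and Cdh2 in tumor Matrigel organoids are limited by their signal near background.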
